A study of Mus musculus with 49 samples.

Results

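Leukaemias started by the MLL-AF9 (MA9) fusion in granulocyte-macrophage progenitors (GMP) were compared with the normal GMP from which such leukaemias arise. The genes described are all those with a mean of at least 1 FPKM (fragments scaled to transcript length and sequencing depth) over the 6 leukaemia samples (GMP:MA9) and the 5 normal samples (GMP), which were 11976 of the 38253 genes in the deposited table. These 11 samples belong to a series of 49 mouse RNA-seq samples that also holds normal stem and progenitor cells and leukaemias of 3 other origins. Just inside the limit of 1 FPKM, Gpr82 had a mean of 1.00 FPKM, and just outside it Acyp2 had a mean of 0.999 FPKM.

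All cells came from female C57BL/6J mice labelled wild type, and the age given for all samples is 6 to 12 weeks. The study gives this as the age of the mice used, and the age of the recipients when they fell ill is not given. Normal GMP were bone marrow cells depleted of lineage-marked cells and then sorted as Sca-1-, c-Kit+, CD150-, CD34+ and FcγR+. For the leukaemias, sorted GMP received a retrovirus carrying the fusion together with GFP and were put into sublethally irradiated mice; once these fell ill, GFP+ cells were sorted from the spleen and profiled in bulk. The labels give bone marrow as the tissue of all samples, where the study's methods give the spleen for leukaemia. Leukaemia and normal cells therefore differ in the fusion, in tissue, in the sort and in culture with cytokines during transduction. They also differ in having passed through a recipient mouse and in the time spent there, which adds to age. These differences cannot be told apart in this design. According to the study each sample was taken from a separate mouse, and the samples were gathered in separate experiments. The labels do not give the experiment of a sample, so it could not be used as a batch.

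GMP are committed myeloid cells that make granulocytes and monocytes. As granulocytes form, the proteins of primary granules are made first, at the promyelocyte stage, and those of secondary and later granules follow, while monocytes take up integrins, phagocytic receptors and lysosomal enzymes. MLL-AF9 joins the chromatin-binding part of MLL to AF9, a partner that recruits the elongation machinery, and is known for holding HOXA genes and their cofactor MEIS1 on in cells that would shut them off.

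The samples had from 15282 to 17112 genes above 0. FPKM hold no read totals, and the depth of 10 samples relative to their median, read from the steps between low values, lay between 0.923 and 1.35; that of GMP replicate 2 was not resolved. Mitochondrial genes took 18.7% to 34.5% of the summed FPKM in leukaemia and 17.6% to 27.5% in normal GMP, a difference of 4.85 percentage points (exact permutation test, two-sided, p = 0.13). GMP:MA9 replicate 2 stood apart: it had the highest mitochondrial share, 34.5%, the lowest share of cytosolic ribosomal proteins, 3.56% against 7.49% to 11.3% in the 5 other leukaemias and 12.5% to 14.1% in normal GMP, and the lowest mean correlation with its group, 0.904 across genes against 0.936 to 0.944. Counts that move without it by over 1.5 times are given with and without it. Among the normal samples, replicates 1 and 2 differed from replicates 3, 4 and 5 in MHC class II, megakaryocyte and erythroid genes, as given with those genes; whether this division follows the experiments was not tested.

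Of the 11976 genes, 1712 were higher (14.3%) and 1080 lower (9.02%) in leukaemia, 23.3% in all, at an adjusted p below 0.05 and a fold change above 2 in limma on log2(FPKM + 1). The median log2 change over all genes was 0.03, and all log2 changes are on this scale, which understates the change of low genes. A change above 8-fold was seen in 126 of the higher and 42 of the lower genes. Counts of the gene lists below are to be read against the 14.3% higher and 9.02% lower of all genes. The comparison between origins has its own shares, given with it. The lowest sample of one group lay above the highest of the other for 4873 genes (40.7%), of which 2430 were called. The genes of the largest rises were an enzyme of prostaglandin breakdown, Hpgd, the stefin A genes, Gm11428, fibronectin and the apolipoprotein Apoc2, and those of the largest falls were myeloperoxidase and Nkg7.

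**Figure D1:**
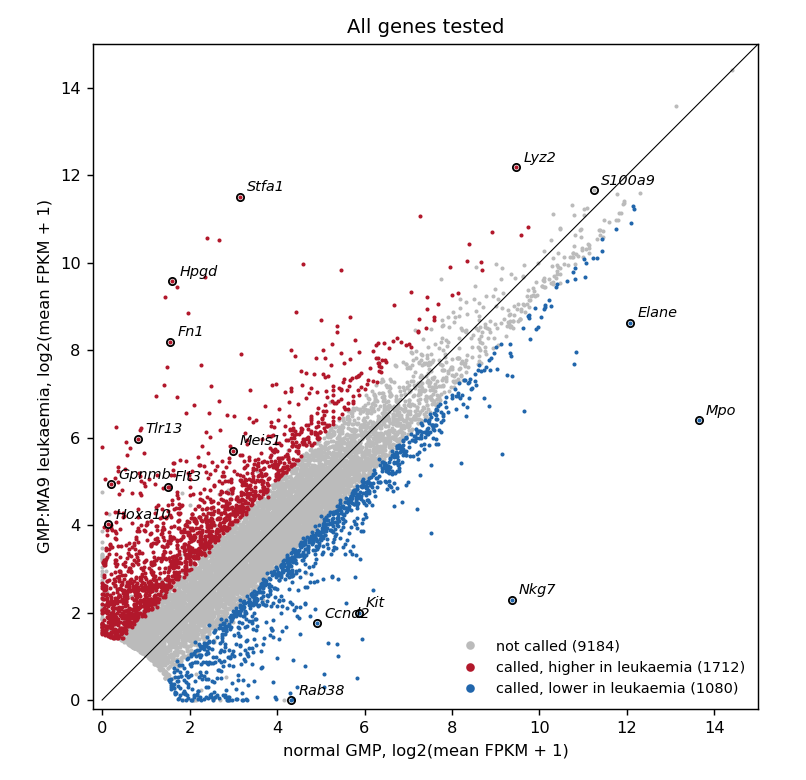
Mean level of each of the 11976 genes in normal GMP (horizontal axis, log2 of mean FPKM + 1) and in GMP:MA9 leukaemia (vertical axis, same unit), with 1712 genes called higher in red, 1080 called lower in blue and the others grey; the line marks equal levels. Stfa1, Hpgd and Fn1 lie far above the line and Mpo and Nkg7 far below it.

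The parts of the fusion gave the first check of the labels. Mll1 (ENSMUSG00000002028, chromosome 9, 44611438 to 44689379), the gene of MLL, was at 52.3–238 FPKM with a median of 76.2 in the leukaemias and at 19.7, 14.5, 13.7, 17.8 and 11.5 FPKM in the normal samples (log2 change 2.43, limma adjusted p = 4.45e-05, SE 0.32). Mllt3 (ENSMUSG00000028496, chromosome 4, 87415829 to 87679268), the gene of AF9, ranged over 41.5–275 FPKM with a median of 49.5 against 5.39–8.34 FPKM (log2 change 3.10, limma adjusted p = 4.43e-05, SE 0.40). Both were above every normal sample in all 6 leukaemias, and the highest value of each, 238 and 275 FPKM, was in replicate 2. Reads of the fusion transcript and of the genes at their own loci cannot be told apart in these values.

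Genes known as targets of MLL fusions were higher in leukaemia. Of 18 tested members of a list of 22, 13 rose and 0 fell, and the median log2 change was 2.26 against 0.03 over all genes. Its members were chosen with earlier results of these data known, so the count is not independent evidence of the direction. Hoxa9 (ENSMUSG00000038227, chromosome 6, 52173099 to 52181088), a homeobox factor of early haematopoietic cells, was at 32.2, 41.4, 23.4, 12.5, 35.1 and 24.4 FPKM in the 6 leukaemias and at 3.97, 2.79, 2.76, 2.96 and 2.57 FPKM in the 5 normal samples. No sample of one group reached the other (log2 change 2.78, limma adjusted p = 1.91e-06, SE 0.25), and the mean was 9.35-fold that of normal GMP. Hoxa10 (ENSMUSG00000000938, chromosome 6, 52181196 to 52190853), its neighbour, was close to absent from normal GMP, with 0–0.180 FPKM, and at 15.2 ± 4.92 FPKM (n = 6, SD) in leukaemia (log2 change 3.83, limma adjusted p = 2.46e-08, SE 0.20). Meis1 (ENSMUSG00000020160, chromosome 11, 18780433 to 18918961), which binds DNA together with HOX proteins, rose from 6.94 ± 2.67 FPKM (n = 5, SD) to 51.1 ± 25.1 FPKM (n = 6, SD) (log2 change 2.65, limma adjusted p = 3.04e-05, SE 0.33). Pbx3, another HOX partner, rose with a log2 change of 3.05, and its leukaemias fell into a lower set of 8.52, 9.18 and 19 FPKM and a higher set of 39.3, 44 and 49.1 FPKM.

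Hoxa5, Hoxa6 and Hoxa7 rose as well, with log2 changes of 2.72, 2.27 and 2.02. Eya1 (ENSMUSG00000025932, chromosome 1, 14159035 to 14300281), a transcriptional cofactor and phosphatase, went from 0.780–1.91 FPKM in normal GMP to 15.2–42.9 FPKM with a median of 30.5 in leukaemia (log2 change 3.70, limma adjusted p = 7.98e-08, SE 0.22). Flt3 (ENSMUSG00000042817, chromosome 5, 148142317 to 148212065), the receptor of FLT3 ligand, rose from 1.83 ± 0.845 FPKM (n = 5, SD) to 28.4 ± 19.2 FPKM (n = 6, SD) (log2 change 3.16, limma adjusted p = 5.17e-05, SE 0.42). Mef2c, Jmjd1c, Runx2 and Tcf4 were the other members called. Myb, on which MLL-fusion leukaemias are known to depend, was lower in every leukaemia, at 87.2–176 FPKM against 202–247 FPKM, by less than 2-fold (log2 change -0.80, limma adjusted p = 0.0012, SE 0.16). Mecom, also called Evi1, was at 25.6 FPKM in leukaemia replicate 2, at most 0.990 FPKM in the 5 others and up to 0.990 FPKM in normal GMP.

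**Figure D2:**
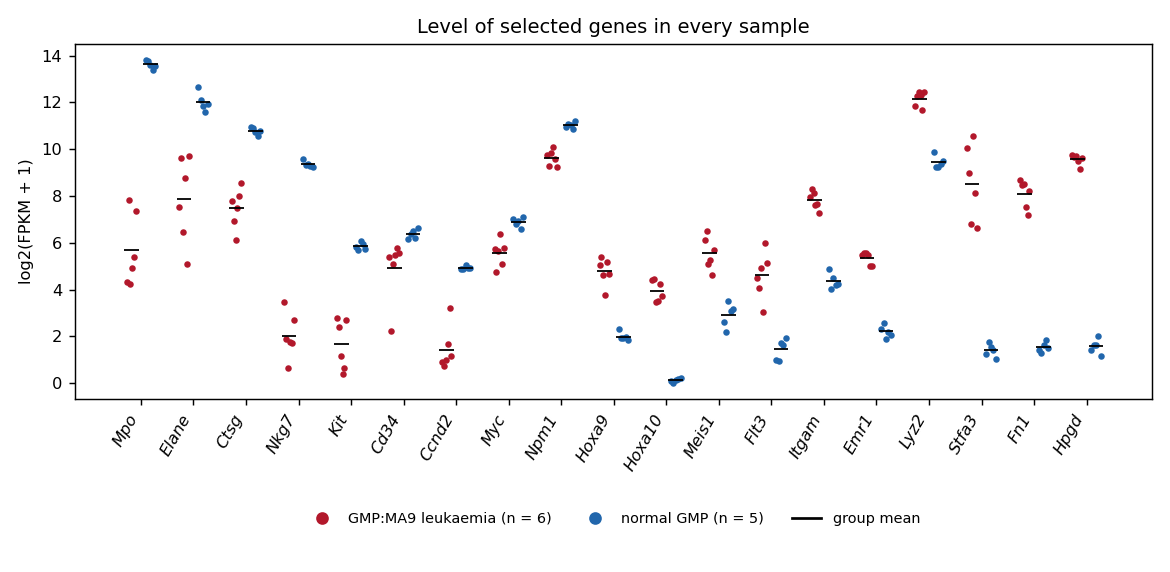
Level of 19 genes on log2(FPKM + 1) in each of the 6 GMP:MA9 leukaemias (red) and 5 normal GMP samples (blue), with a line at the mean of each group on that scale. From left to right, primary granule genes, Nkg7, progenitor receptors and growth genes are lower in leukaemia, and HOX genes, Meis1, Flt3, monocyte genes, Stfa3, Fn1 and Hpgd are higher.

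Primary granule genes were lower. Of 10 tested members of a list of 11, 9 fell and 0 rose, with a median log2 change of -3.10, and the summed FPKM of the list was 785–2905 in leukaemia and 19153–28002 in normal GMP. In bulk RNA, fewer cells that express a gene and less RNA of it per cell cannot be told apart. Mpo (ENSMUSG00000009350, chromosome 11, 87607083 to 87617915), the peroxidase that makes hypochlorous acid, was among the most abundant transcripts of normal GMP, at 14354, 14026, 12449.9, 10745 and 12230.5 FPKM. In the leukaemias it was at 19, 229, 17.7, 29.7, 41.2 and 164 FPKM, all far below the normal range (log2 change -7.95, limma adjusted p = 5.36e-07, SE 0.60). The mean in normal GMP was 153-fold that in leukaemia. Elane (ENSMUSG00000020125, chromosome 10, 79349057 to 79350961), neutrophil elastase, fell from 4302 ± 1288 FPKM (n = 5, SD) to 394 ± 351 FPKM (n = 6, SD) (log2 change -4.15, limma adjusted p = 0.00038, SE 0.72), and its leukaemias ranged widely, over 33.5–832 FPKM.

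Prtn3 and Ctsg, the serine proteases stored with elastase, fell from 1438–2542 FPKM to 111–474 FPKM and from 1511–1986 FPKM to 69.2–378 FPKM, with log2 changes of -3.04 and -3.30. Ms4a3, a membrane protein of granulocyte progenitors, fell from 563 ± 37.7 FPKM (n = 5, SD) to 48.7 ± 34.4 FPKM (n = 6, SD) (log2 change -4.03, limma adjusted p = 0.000146, SE 0.62). Prss57, a further granule protease, and Srgn, the proteoglycan that packs granule contents, fell with log2 changes of -3.15 and -1.32; Cd63 and Serpinb1a fell as well. Ctsc, the protease that activates the others, was not called and was at 37.6–95.8 FPKM against 27.5–42.6 FPKM. The 9 members that fell were those that lay lower without overlap, against 19.6% of all genes. Of the 2792 called genes 2430 did not overlap either, so this adds little to the call.

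The 150 bases before the transcription start are given for the 5 members with the deepest falls among those with a promoter in the table, from RefSeq on GRCm38.p6 (another build than the mm9 positions above), 5′ to 3′ on the strand of the gene. Capitals mark matches on either strand to GAGGAA, a core bound by PU.1, to TGTGGT, bound by RUNX factors, to TAACNG, bound by MYB, and to TTGCNNAA, bound by C/EBP factors.
Mpo, chr11:87793634-87793783, plus strand: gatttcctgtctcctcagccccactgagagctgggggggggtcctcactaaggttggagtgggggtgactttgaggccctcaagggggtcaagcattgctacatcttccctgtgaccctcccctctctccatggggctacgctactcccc
Elane, chr10:79886162-79886311, plus strand: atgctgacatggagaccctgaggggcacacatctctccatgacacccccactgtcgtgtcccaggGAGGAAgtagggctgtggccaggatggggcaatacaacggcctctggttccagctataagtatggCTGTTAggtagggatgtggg
Ms4a3, chr19:11640852-11641001, minus strand: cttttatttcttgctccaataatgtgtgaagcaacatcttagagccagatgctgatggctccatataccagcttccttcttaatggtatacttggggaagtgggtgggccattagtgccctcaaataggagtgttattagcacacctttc
Prtn3, chr10:79879517-79879666, plus strand: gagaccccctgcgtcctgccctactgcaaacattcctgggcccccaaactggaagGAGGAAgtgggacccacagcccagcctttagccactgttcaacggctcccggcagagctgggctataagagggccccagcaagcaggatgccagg
Ctsg, chr14:56102575-56102724, minus strand: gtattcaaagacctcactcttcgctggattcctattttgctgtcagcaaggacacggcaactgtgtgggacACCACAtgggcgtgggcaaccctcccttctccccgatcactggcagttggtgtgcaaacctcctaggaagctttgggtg
Of the 11 members, 9 had a promoter in the RefSeq table, and 5 of these 9 held GAGGAA in this window, against 14.5% of 32851 promoters. Those 5 were Elane, Prtn3 and Cd63, which fell, Ctsc, which was not called, and Bpi, which lay below the filter. TGTGGT was in 1 of 9 (8.40% of all promoters), TAACNG in 1 of 9 (12.0%) and TTGCNNAA in 0 of 9 (5.46%). Elane and Prtn3, which lie near each other on chromosome 10, both carried GAGGAA followed by GT, and Ctsc, which was not called, held GAGGAA on the opposite strand. A match in these letters is a description of the sequence and not a bound site.

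Genes of later granules were called in both directions. Of 19 tested members 7 rose and 1 fell, and the median log2 change was 0.43. Lyz2 (ENSMUSG00000069516, chromosome 10, 116714390 to 116719377), the lysozyme of macrophages and granulocytes, had the largest rise in mean FPKM of all called protein-coding genes, from 709.6 ± 141 FPKM (n = 5, SD) to 4666 ± 989.9 FPKM (n = 6, SD) (log2 change 2.71, limma adjusted p = 4.47e-07, SE 0.20). Cybb, the catalytic subunit of the phagocyte oxidase, was at 247–356 FPKM against 44.2–68.3 FPKM (log2 change 2.45, limma adjusted p = 4.94e-08, SE 0.14). Chi3l3, a chitinase-like secreted protein, rose from 61.6–288 FPKM to 267–6779 FPKM, and its lowest leukaemias lay within the normal range (log2 change 3.04, limma adjusted p = 0.00458, SE 0.77).

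Mmp9, a gelatinase of tertiary granules, rose with a log2 change of 2.91, and Mmp8, Padi4 and Cd177 were the other members that rose. S100a8 and S100a9, which form calprotectin, were at 2399 ± 1857 FPKM (n = 6, SD) and 3235 ± 2332 FPKM (n = 6, SD) in leukaemia and at 2082 ± 1292 FPKM (n = 5, SD) and 2424 ± 1606 FPKM (n = 5, SD) in normal GMP. Their groups overlapped (limma adjusted p = 0.926 and limma adjusted p = 0.806), as did those of Camp, Ltf and Ngp, which are genes of secondary granules. Fcnb, a ficolin of early granules, was the member that fell (log2 change -1.78, limma adjusted p = 0.01, SE 0.51). It was at 191 FPKM in normal replicate 1 and at 77.2 to 100 FPKM in the other normal samples. The call was lost without normal replicates 1 and 2 (limma adjusted p = 0.0568) and without normal replicates 3, 4 and 5 (limma adjusted p = 0.0693).

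The stefin A genes on chromosome 16, which encode inhibitors of cysteine proteases, rose together. All 6 tested members of the list rose, with log2 changes between 6.63 and 7.59, against 14.3% of all genes that were higher, and their summed FPKM went from 18.8–33.7 to 806–19006. Stfa1 (ENSMUSG00000071562, chromosome 16, 36277213 to 36285457) was at 7.02–9.88 FPKM in normal GMP and at 7065, 2466, 286, 5815, 763 and 1092 FPKM in the leukaemias (log2 change 7.59, limma adjusted p = 2.38e-06, SE 0.69). BC100530, Gm5483, Stfa2 and Stfa2l1 rose as well, but between 34.5% and 62.8% of the 31-base windows of these genes and of Stfa1 also occur in another gene, so reads may have been divided among copies. Stfa3 (ENSMUSG00000054905, chromosome 16, 36450623 to 36455478) shares no window and was the 1 member left when genes with over 20% shared were put aside; it was at 1.38, 2.34, 1.96, 1.70 and 1.07 FPKM in normal GMP and at 1059.8, 505, 112, 1512, 276 and 99.7 FPKM in leukaemia (log2 change 7.12, limma adjusted p = 1.98e-06, SE 0.63). The promoter windows of Stfa1 and Stfa3 are shown with the same motifs in capitals, since they differ in the matches they hold.
Stfa1, chr16:36276998-36277147, plus strand: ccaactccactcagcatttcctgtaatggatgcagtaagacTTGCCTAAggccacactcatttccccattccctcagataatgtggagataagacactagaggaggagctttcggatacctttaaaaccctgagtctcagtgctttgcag
Stfa3, chr16:36455393-36455542, minus strand: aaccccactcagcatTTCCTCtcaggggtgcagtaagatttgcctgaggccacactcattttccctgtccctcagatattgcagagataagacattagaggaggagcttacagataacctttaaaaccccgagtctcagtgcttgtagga
Of the 4 members with a promoter in the table, 3 held GAGGAA and 1, Stfa1, held TTGCNNAA.

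Monocyte and macrophage genes were higher. Of 18 tested members of a list of 23, 12 rose and 0 fell, with a median log2 change of 1.68. Itgam (ENSMUSG00000030786, chromosome 7, 135206154 to 135271674), the integrin chain CD11b, rose from 15.5–28.7 FPKM to 154–315 FPKM with a median of 225 (log2 change 3.45, limma adjusted p = 5.01e-08, SE 0.20). Antibodies to CD11b and Gr-1 were used to deplete the normal cells, and the leukaemia cells had no such depletion. For this gene and for the other genes of maturing myeloid cells, the sort and the leukaemia cannot be told apart. Emr1, the macrophage antigen F4/80, went from 3.70 ± 0.848 FPKM (n = 5, SD) to 40.4 ± 7.31 FPKM (n = 6, SD) (log2 change 3.14, limma adjusted p = 1.77e-08, SE 0.16). Cd68, a membrane protein of macrophage lysosomes, went from 49.9 ± 10.5 FPKM (n = 5, SD) to 429 ± 129 FPKM (n = 6, SD) (log2 change 3.05, limma adjusted p = 1.68e-07, SE 0.20). Ctss, a lysosomal protease of antigen-presenting cells, was at 281–445 FPKM against 34–52.9 FPKM.

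Csf1r, the receptor of the monocyte growth factor M-CSF, rose by less, from 18.8–27.9 FPKM to 32.4–129.5 FPKM with a median of 57 (log2 change 1.53, limma adjusted p = 0.000878, SE 0.30). Irf8, a regulator that directs progenitors to monocytes, was not called, with 29.4–118 FPKM in leukaemia and 34.6–60.3 FPKM in normal GMP. Among genes of the lysosome 11 of 23 rose and 0 fell (1 fell when any 1 of normal replicate 4 and leukaemia replicates 4, 5 and 6 was left out), with a median of 0.79, led by Gpnmb, a glycoprotein of phagosomes, which went from 0.110–0.250 FPKM to 15.5–55.7 FPKM (log2 change 4.59, limma adjusted p = 6.75e-08, SE 0.27). Grn, progranulin, was at 224–346 FPKM against 60.8–89.5 FPKM (log2 change 1.85, limma adjusted p = 3.68e-07, SE 0.13).

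Sensors of microbial products rose in the same samples. Of 19 tested genes of innate sensing 13 rose and 0 fell, with a median of 1.49. Tlr13 (ENSMUSG00000033777, chromosome X, 103338543 to 103355832), an endosomal receptor of bacterial ribosomal RNA, went from 0.560, 0.390, 0.840, 1.52 and 0.550 FPKM to 44–87.2 FPKM with a median of 62.1 (log2 change 5.14, limma adjusted p = 2.31e-09, SE 0.20). The other receptors of nucleic acids in endosomes, Tlr7, Tlr8 and Tlr9, rose with log2 changes of 3.11, 2.66 and 2.72. Tlr4, the receptor of endotoxin, was at 1.58–6.30 FPKM against 5.78–8.90 FPKM and was just short of a 2-fold change (log2 change -0.99, limma adjusted p = 0.00276, SE 0.23). It passed 2-fold when any 1 of normal replicates 3 and 5 and leukaemia replicates 2 and 6 was left out, so that 1 gene of the list fell. The replicate block gave the same log2 change as leaving out leukaemia replicate 6. Correction for GC content and length, median-ratio scaling or a pseudocount of 0.1 also took Tlr4 past 2-fold. All these log2 changes lay between -1.02 and -1.20.

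Genes of adhesion and homing rose in 10 of 19 cases and fell in 0, with a median of 1.00. Itgb2, the chain that pairs with CD11b, was at 156–208 FPKM against 18.8–27.8 FPKM (log2 change 2.98, limma adjusted p = 3.75e-09, SE 0.12). Itgb7, an integrin chain of gut homing, and Ccr1, a receptor of inflammatory chemokines, rose with log2 changes of 3.47 and 3.98. Cxcr4, the receptor that keeps cells in the marrow, rose from 128 ± 11.7 FPKM (n = 5, SD) to 283 ± 38.7 FPKM (n = 6, SD) (log2 change 1.13, limma adjusted p = 1.05e-05, SE 0.12). Fn1 (ENSMUSG00000026193, chromosome 1, 71632094 to 71699774), fibronectin, a ligand of integrins, went from 1.68, 1.47, 2.08, 2.63 and 1.81 FPKM to 407, 352, 369, 185, 146 and 296 FPKM (log2 change 6.56, limma adjusted p = 1.94e-09, SE 0.25). No leukaemia came near the normal range of Fn1, the lowest being replicate 5.

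Hpgd (ENSMUSG00000031613, chromosome 8, 58773349 to 58799843), the dehydrogenase that inactivates prostaglandins, showed the largest rise of all called protein-coding genes. It was at 1.66, 2.11, 2.08, 3.03 and 1.27 FPKM in normal GMP and at 864, 824, 848, 716, 561 and 781 FPKM in the leukaemias, with no overlap (log2 change 7.99, limma adjusted p = 5.88e-12, SE 0.16). The mean was 377-fold that of normal GMP. Of 16 tested genes of eicosanoid metabolism 6 rose and 2 fell, with a median of 0.15. Alox5, which starts leukotriene synthesis, and its activating protein Alox5ap rose with log2 changes of 2.74 and 1.14. Cyp4f18, which breaks down leukotriene B4, rose from 1.18–4.83 FPKM to 36.1–50.6 FPKM (log2 change 3.61, limma adjusted p = 4.5e-08, SE 0.20). Lta4h, the enzyme that makes leukotriene B4, was lower, at 24.4–85.1 FPKM against 102–135 FPKM (log2 change -1.21, limma adjusted p = 0.00564, SE 0.31), as was the prostaglandin E synthase Ptges3.

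**Figure D3:**
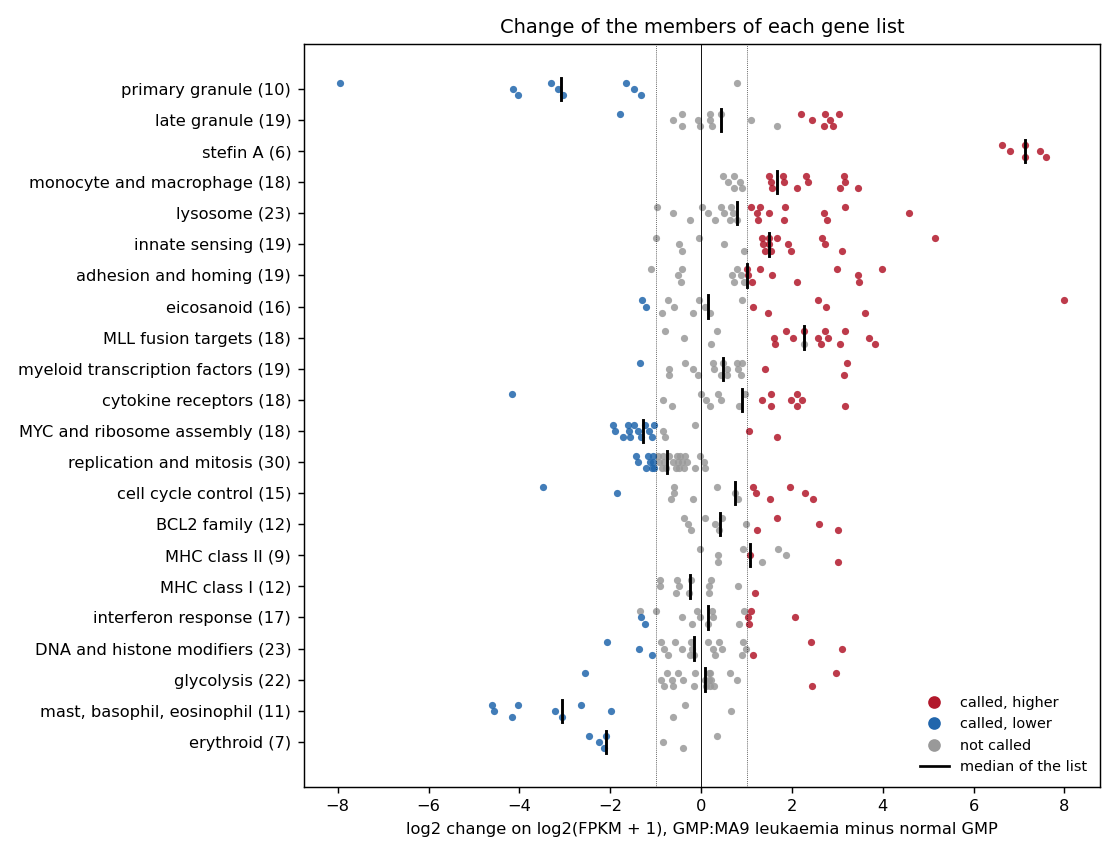
Log2 change on log2(FPKM + 1), GMP:MA9 minus GMP, of the tested members of 22 gene lists, 1 point per gene, with the number tested in parentheses, members called higher in red, called lower in blue and the rest grey; the bar is the median of the list and dotted lines mark 2-fold. Primary granule genes lie at a median of -3.10 and stefin A genes at 7.12.

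Of 19 tested transcription factors of the myeloid lineage 3 rose and 1 fell, which is near the 14.3% and 9.02% of all genes. Irf5, an interferon regulatory factor of macrophages, rose from 4.38 ± 0.935 FPKM (n = 5, SD) to 49.4 ± 11.3 FPKM (n = 6, SD) (log2 change 3.22, limma adjusted p = 3.73e-08, SE 0.18), Id2, an inhibitor of E proteins, from 2.23–5.04 FPKM to 23.6–64.3 FPKM (log2 change 3.14, limma adjusted p = 4.74e-07, SE 0.24), and Cebpb, a C/EBP factor of macrophages, from 0.500–1.16 FPKM to 3.23–4.91 FPKM. Gfi1, a repressor that directs cells to granulocytes, fell in the mean but was spread over 3.07–31.4 FPKM in leukaemia against 23.7–33.1 FPKM (log2 change -1.34, limma adjusted p = 0.0399, SE 0.51), and the call was lost when any 1 of 8 of the 11 samples was left out, with an adjusted p of 0.0578 to 0.0832. Cebpa, which GMP need to form, was below every normal sample by less than 2-fold (log2 change -0.71, limma adjusted p = 0.0012, SE 0.15). Sfpi1, the gene of PU.1, was above every normal sample, also by less than 2-fold, at 99.7–193 FPKM against 56.7–99 FPKM (log2 change 0.89, limma adjusted p = 0.00121, SE 0.18), and passed 2-fold without normal replicate 1, with a log2 change of 1.01. Without normal replicates 1 and 2, 5 of the factors rose and 0 fell.

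Of 8 tested genes used in sorting such cells 2 rose and 2 fell, against 14.3% and 9.02% of all genes. Kit (ENSMUSG00000005672, chromosome 5, 75970941 to 76052747), the receptor of stem cell factor, was at 56.2, 50.6, 67.4, 60.3 and 51.5 FPKM in normal GMP, which were sorted for it, and at 5.94, 4.32, 1.22, 0.330, 0.580 and 5.48 FPKM in the leukaemias, which were sorted on GFP alone (log2 change -4.17, limma adjusted p = 5.67e-06, SE 0.42). Cd34 was lower in all leukaemias, with 3.64 FPKM in replicate 2 and 33.4 to 53.2 FPKM in the 5 others against 70.0–98.3 FPKM (log2 change -1.46, limma adjusted p = 0.0298, SE 0.52); without replicate 2 the log2 change was -0.91, short of 2-fold (adjusted p = 0.000113). The call of Cd34 was also lost when any 1 of normal replicates 2, 3 and 5 was left out (limma adjusted p = 0.0541 to 0.0619) and with no filter on low values (limma adjusted p = 0.0631). Fcgr3, part of the third sort marker, was at 173 ± 31.8 FPKM (n = 6, SD) and 155 ± 22.7 FPKM (n = 5, SD) (limma adjusted p = 0.415). Ly6a, the gene of Sca-1, was not called (log2 change -0.88, limma adjusted p = 0.235). Without leukaemia replicate 2 it was called lower (log2 change -1.43, limma adjusted p = 0.00404). Ptprc, the pan-leukocyte antigen CD45, rose from 31.1–38.6 FPKM to 139.6–196 FPKM (log2 change 2.24, limma adjusted p = 1.99e-08, SE 0.11).

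Of 18 tested cytokine receptors 8 rose and 1, Kit, fell, or 2 fell without normal replicate 2. Csf2ra, the GM-CSF receptor chain, rose from 21.1–33.8 FPKM to 61.6–373 FPKM (log2 change 2.11, limma adjusted p = 0.000326, SE 0.36), with its highest value in replicate 2. Il17ra, the receptor of interleukin 17, rose from 18.2 ± 1.96 FPKM (n = 5, SD) to 88.7 ± 9.76 FPKM (n = 6, SD) (log2 change 2.22, limma adjusted p = 1.25e-08, SE 0.11). Csf3r, the G-CSF receptor, overlapped between the groups, with 17.9–82.9 FPKM against 50.8–65.3 FPKM (limma adjusted p = 0.107).

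Growth genes were lower in leukaemia. Of 18 tested genes of MYC and of ribosome assembly 13 fell and 2 rose, with a median of -1.29, and without leukaemia replicate 2 the counts were 11 and 1; 1 rose also without normal replicate 2 or leukaemia replicate 1 or 6. Myc (ENSMUSG00000022346, chromosome 15, 61816946 to 61821929) was at 129, 109, 119.8, 96.8 and 137 FPKM in normal GMP and at 51.6, 26, 48.6, 81.7, 33 and 54.4 FPKM in leukaemia, with no overlap (log2 change -1.33, limma adjusted p = 0.000479, SE 0.24). Npm1, a nucleolar chaperone of ribosome assembly, fell from 2094 ± 196 FPKM (n = 5, SD) to 814 ± 189 FPKM (n = 6, SD) (log2 change -1.39, limma adjusted p = 3.86e-05, SE 0.18). Hspd1, a mitochondrial chaperone, fell with a log2 change of -1.93. The 2 members that rose were Mycl1 and Mxd1, an antagonist of MYC, with log2 changes of 1.68 and 1.04.

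Cytosolic ribosomal proteins, grouped after Rps4x and Rps3a had been named by their fall in mean FPKM, were 76 genes of which 14 fell and 0 rose; without leukaemia replicate 2, 3 fell. All 76 had a negative log2 change, with a median of -0.79, or -0.53 without that replicate. Without normal replicate 1, 9 fell, without normal replicates 1 and 2, 6 fell, and without normal replicates 3, 4 and 5, 5 fell. Many of these genes have pseudogenes, and of the 27 that share at most 20% of their windows 3 fell. Rps4x was at 2962, 627, 1909, 3674, 3349 and 2446 FPKM in leukaemia and at 3946–5080.0 FPKM in normal GMP (log2 change -1.05, limma adjusted p = 0.0349, SE 0.39), and without replicate 2 the log2 change was -0.69, short of 2-fold. The call of Rps4x was also lost when any 1 of normal replicates 1, 2, 3 and 5 and leukaemia replicate 3 was left out (limma adjusted p = 0.0592 to 0.0707), with the replicate block (limma adjusted p = 0.0754) and with no filter (limma adjusted p = 0.105). After correction for GC content and length and with mitochondrial genes removed it was short of 2-fold, at -0.92 and -0.95. Atp5b, a subunit of the ATP synthase, fell from 3733–4822 FPKM to 1292–2642 FPKM (log2 change -1.21, limma adjusted p = 0.00033, SE 0.21).

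Genes of DNA replication and mitosis were lower in part. Of 30 tested 9 fell and 0 rose, with a median of -0.75; without leukaemia replicate 2, 4 fell. Cdk1, the mitotic kinase, was at 15–75.7 FPKM against 93–119.5 FPKM (log2 change -1.44, limma adjusted p = 0.00146, SE 0.30), and Mcm6, a part of the replicative helicase, fell with a log2 change of -1.17. Mki67, a marker of cycling cells, was at 111 ± 17.9 FPKM (n = 6, SD) and 106 ± 12.4 FPKM (n = 5, SD) (limma adjusted p = 0.743).

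The D cyclins changed in opposite directions. Ccnd2 (ENSMUSG00000000184, chromosome 6, 127075797 to 127101066), cyclin D2, fell from 28.1, 28, 31.9, 29.2 and 28.9 FPKM to 0.64 to 2.15 FPKM in 5 leukaemias and 8.38 FPKM in replicate 5 (log2 change -3.48, limma adjusted p = 8.16e-06, SE 0.37). Ccnd3, cyclin D3, rose from 26.6–46.4 FPKM to 118–171 FPKM (log2 change 1.96, limma adjusted p = 3.73e-07, SE 0.14). Cdk4, a kinase that D cyclins activate, fell from 317 ± 32.5 FPKM (n = 5, SD) to 88.7 ± 22.3 FPKM (n = 6, SD) (log2 change -1.86, limma adjusted p = 4.42e-06, SE 0.18), while Cdk6, the other such kinase, was at 215–338 FPKM against 185–241 FPKM and was not called. Cdkn1a, the inhibitor p21, rose from 12–15.3 FPKM to 26.1–154 FPKM (log2 change 2.29, limma adjusted p = 0.000194, SE 0.36), and E2f2, a factor of S phase genes, with a log2 change of 2.46. In all 6 of 15 tested genes of cell cycle control rose and 2 fell, against 14.3% and 9.02% of all genes.

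Against 14.3% and 9.02% of all genes, 4 of 12 tested genes of the BCL2 family rose and 0 fell. They included the protective Mcl1, at 107–143 FPKM against 47.1–60.6 FPKM, and Bcl2a1b, as well as the death-promoting Pmaip1 and Bmf, whose log2 changes were 3.01 and 2.59. Bcl2 itself overlapped between the groups (limma adjusted p = 0.264).

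Among modifiers of DNA and chromatin 3 of 23 rose and 3 fell, and the 3 that rose included Mll1 and Mllt3, against 14.3% and 9.02% of all genes; with mitochondrial genes removed 5 rose. Tet1, an enzyme of DNA demethylation, fell from 5.46–10.7 FPKM to 0.120–3.70 FPKM (log2 change -2.08, limma adjusted p = 0.000375, SE 0.36), while its relative Tet2 was above every normal sample by less than 2-fold, at 27.5–38 FPKM against 14–17.5 FPKM (log2 change 0.92, limma adjusted p = 2.07e-05, SE 0.11). The methyltransferases Dnmt3b and Dnmt1 fell, with log2 changes of -1.36 and -1.09.

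In glycolysis 2 of 22 tested genes rose and 1 fell, no more than the 14.3% and 9.02% of all genes. Ldhb, the lactate dehydrogenase chain of heart type, was the one that fell, from 45.3–56.6 FPKM to 2.80–17.5 FPKM with a median of 8.41 (log2 change -2.55, limma adjusted p = 3.69e-05, SE 0.32). Ldha, the chain of muscle type, was at 324 ± 30.7 FPKM (n = 6, SD) and 355 ± 28 FPKM (n = 5, SD) (limma adjusted p = 0.327). The rises were those of the sugar transporter Slc2a6 and of Aldoc, with log2 changes of 2.96 and 2.45. Of 15 tested immediate early and stress genes 3 rose and 2 fell, near the 14.3% and 9.02% of all genes. Without normal replicates 3, 4 and 5, 1 rose and 4 fell. Nr4a1, a nuclear receptor induced by signals, rose from 0.140–0.390 FPKM to 9.05–12.4 FPKM (log2 change 3.17, limma adjusted p = 2.13e-09, SE 0.12), and Fosb fell (log2 change -2.26, limma adjusted p = 0.00554, SE 0.59), with its highest value, 28.4 FPKM, in normal replicate 2.

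MHC class II genes, which present antigen, were spread in both groups. Of 9 tested 2 rose and 0 fell, against 14.3% and 9.02% of all genes, with a median of 1.07. Cd74 (ENSMUSG00000024610, chromosome 18, 60963502 to 60972300), the invariant chain, was at 1.63, 1.58, 49.1, 47.2 and 44.5 FPKM in normal GMP, and at 13, 344, 263, 20.6, 473 and 246 FPKM in leukaemia (log2 change 3.02, limma adjusted p = 0.0388, SE 1.15). The values of leukaemia replicates 1 and 4 lay between the lower and the higher normal samples, and those of the other 4 above all of them. Without normal replicates 1 and 2 the log2 change of Cd74 was 1.34 (adjusted p = 0.332) and 1 gene of the list rose; without normal replicates 3, 4 and 5, 4 genes rose. When any 1 of normal replicates 1 and 2 or leukaemia replicates 2, 3, 5 and 6 was left out, the call of Cd74 was lost, with an adjusted p of 0.0691 to 0.104. The list had 4 genes that rose without leukaemia replicate 1 or without replicate 4, 0 without replicate 5, and 1 when any 1 of normal replicates 1 and 2 and leukaemia replicates 3 and 6 was left out. H2-Aa was likewise lowest in normal replicates 1 and 2 and, among the leukaemias, in replicates 1 and 4, with 2.19, 2.51, 55.9, 63.4 and 56.1 FPKM in normal GMP and 8.03, 105, 101, 10.8, 302 and 146 FPKM in leukaemia (limma adjusted p = 0.205).

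Of 12 tested genes of MHC class I, 1 rose and 0 fell, against 14.3% and 9.02% of all genes, or 1 fell without leukaemia replicate 5. This was H2-T23, a non-classical class I gene, at 55.3–89.4 FPKM against 25.1–31.8 FPKM (log2 change 1.19, limma adjusted p = 8.19e-06, SE 0.13); B2m, the light chain of class I, was at 1369–2830.2 FPKM against 2579–3299 FPKM. Of 17 tested interferon response genes 4 rose and 2 fell, near the shares of all genes, and the counts were 1 and 3 without leukaemia replicate 2 and 1 and 4 without normal replicate 2. After correction for GC content and length 1 rose and 3 fell. Mx1, an antiviral GTPase, rose from 0.310–1.39 FPKM to 2.97–11.8 FPKM (log2 change 2.07, limma adjusted p = 5.53e-05, SE 0.28). Ifitm3 was at 1293 FPKM in leukaemia replicate 2 and at 244 to 790 FPKM in the others, against 218–313 FPKM, and its log2 change of 1.05 was 0.79 without that replicate and 0.93 without replicate 3. The call of Ifitm3 was also lost without normal replicate 2 (limma adjusted p = 0.0507) and after correction for GC content and length (limma adjusted p = 0.0556).

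Genes of other blood lineages were examined because normal GMP hold transcripts of them. Of 11 tested genes of mast cells, basophils and eosinophils 8 fell and 0 rose, with a median of -3.06, and their sum was 66.1–539 FPKM in leukaemia and 455–1723 FPKM in normal GMP. Epx, the eosinophil peroxidase, went from 9.33–35.7 FPKM to at most 0.660 FPKM (log2 change -4.04, limma adjusted p = 3.15e-07, SE 0.29). Prss34, a basophil protease, was at 30.1–61.3 FPKM in normal GMP, at most 0.360 FPKM in 5 leukaemias and at 20.9 FPKM in replicate 5. Cpa3, a mast cell protease, was at 35.8, 0.870, 113, 50.6, 225 and 25.2 FPKM in leukaemia, across the normal range of 24.5–103 FPKM. Without normal replicates 3, 4 and 5, 5 of the list fell.

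Of 13 erythroid genes 6 lay below the filter and 4 of the 7 tested fell. Of 10 megakaryocyte genes 6 lay below it and 3 of the 4 tested fell. With no filter on low values 4 of 13 and 3 of 10 fell, with median log2 changes of -0.48 and -0.22. Genes near 0 in leukaemia, such as Pf4 and Car1, passed the filter through the normal samples alone, so the counts of tested genes favour a fall. The falls in both lists rest on normal replicates 3, 4 and 5: without them 0 fell in either list. The globin genes Hbb-b1 and Hbb-b2 share sequence with each other. Car1, the carbonic anhydrase of early erythroid cells, was at 0.650 and 0.700 FPKM in normal replicates 1 and 2 and at 9.57, 17.1 and 9.47 FPKM in the others, and was listed at 0 in 5 of 6 leukaemias. Pf4, the platelet chemokine, was at 1.05, 2.83, 39.4, 30.5 and 19.6 FPKM in normal GMP and at most 0.360 FPKM in leukaemia. Vwf, the von Willebrand factor, was the megakaryocyte gene that rose (log2 change 1.49, limma adjusted p = 5.82e-05, SE 0.20).

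Lymphoid and stromal genes were low in both groups. The summed FPKM of 13 genes of T and NK cells was 0.990–8.15 in leukaemia and 2.29–10.5 in normal GMP, and that of 11 B cell genes 12.4–38.5 and 22.3–37.5; the defining genes Cd3e and Cd79a were below the filter. Gzmb, a granzyme, was the 1 T and NK cell gene tested and fell, as did Vpreb3 among 3 tested B cell genes. No B cell gene was called when any 1 of leukaemia replicates 1, 2 and 4 and normal replicates 3, 4 and 5 was left out, or in the fit of 8 groups. For 12 genes of spleen stroma, of which 11 were matched, the sums were 50.9–137 and 38.2–52.9 FPKM, with 0 of 4 tested genes called, or 1 higher without leukaemia replicate 6, and Col1a1, Cdh5 and Madcam1 were below the filter. Their part in the results above was not tested.

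Other genes were named by the size of their change alone. Nkg7 (ENSMUSG00000004612, chromosome 7, 50692443 to 50693616), a granule protein of cytotoxic cells, was at 773, 633, 653, 631 and 610.0 FPKM in normal GMP and at 10.1, 2.74, 0.550, 2.38, 2.27 and 5.41 FPKM in leukaemia (log2 change -7.34, limma adjusted p = 2.24e-08, SE 0.38). Its fall was second to that of Mpo. Rab38, a small GTPase of lysosome-related organelles, was at 15.3–23.9 FPKM in normal GMP and listed at 0 in all 6 leukaemias. Ppic, a cyclophilin, fell from 26.8–35 FPKM to 0–0.560 FPKM (log2 change -4.79, limma adjusted p = 4.29e-10, SE 0.15), and Phgdh, the first enzyme of serine synthesis, from 49.3–65.9 FPKM to 0.610–2.83 FPKM (log2 change -4.64, limma adjusted p = 1.35e-08, SE 0.22), although 47.9% of its windows also lie in another gene. Dmkn, Tceal8 and Gm4631 (57.1% shared) fell with log2 changes of -4.52, -4.37 and -4.53.

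Among rises, Gm11428 (ENSMUSG00000069792, chromosome 11, 83517493 to 83519770) went from 1.11–4.71 FPKM to 119–1007 FPKM (log2 change 6.71, limma adjusted p = 2.1e-07, SE 0.45). Apoc2, an apolipoprotein that activates lipoprotein lipase, went from 0.400–3.87 FPKM to 87.2–241 FPKM (log2 change 5.87, limma adjusted p = 4.14e-08, SE 0.33). Tyrobp, the adaptor DAP12 of myeloid receptors, went from 480.1 ± 58.6 FPKM (n = 5, SD) to 1654 ± 371 FPKM (n = 6, SD) (log2 change 1.75, limma adjusted p = 1e-05, SE 0.19).

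The 6 leukaemias were less alike than the 5 normal samples: their mean correlation with the others of their group, across genes and as a description, was 0.904 to 0.944 against 0.975 to 0.980. Genes of large SD among the leukaemias that the annotation gives as protein-coding were Rpl27-ps3, which has the name of a pseudogene, Prg2, Cpa3, Vill and Gm10197. Rpl27-ps3 and Gm10197 share 93.3% and 95.9% of their windows with other genes. Vill, a villin-like protein, was at 0.110, 16.8, 0.0800, 39.5, 17.8 and 0.980 FPKM in leukaemia replicates 1 to 6 and at 10.5–13.8 FPKM in normal GMP. Prg2, the major basic protein of eosinophils, was at 399.6, 1.94, 11.3, 106, 49.8 and 7.68 FPKM, with 1 leukaemia inside the normal range of 291–1260.2 FPKM.

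Maturation and antigen presentation varied among the leukaemias as well. The summed FPKM of the stefin A genes was 19006, 7184, 806, 15912, 2497 and 2636 in replicates 1 to 6, that of the late granule genes 19981, 14149, 7633, 18325, 6324 and 27613, and that of the MHC class II genes 179, 661, 633, 175, 1181 and 661. Replicates 1 and 4 had the highest stefin A and the lowest class II sums, and replicates 3 and 5 had the lowest late granule sums. Elane and Cebpe were lowest in replicates 3 and 5 too, at 87.9 and 33.5 FPKM and at 3.78 and 4.78 FPKM, while in the other 4 Elane was at 187 to 832 FPKM and Cebpe, a C/EBP factor of late granulocytes, at 18.8 to 30.6 FPKM.

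**Figure D4:**
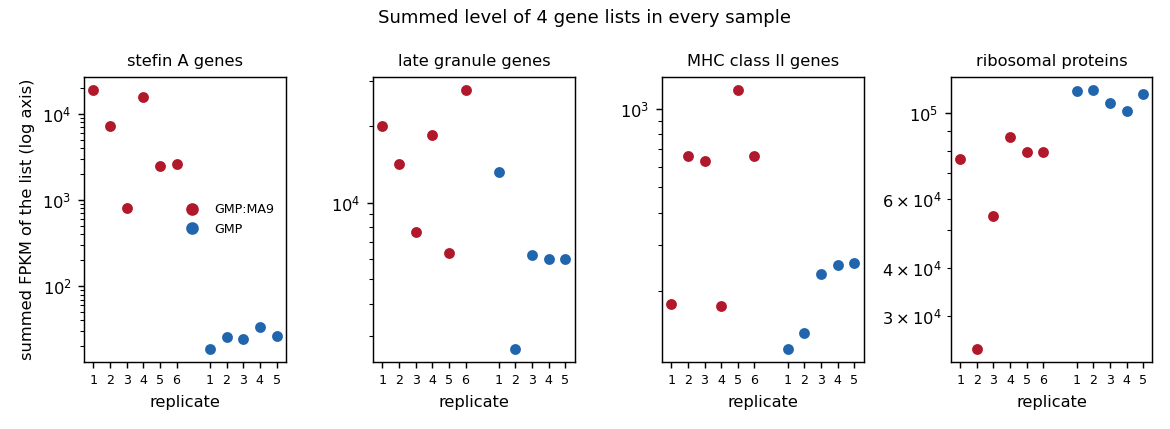
Summed FPKM (log axis) of 4 gene lists in leukaemia replicates 1 to 6 (red) and normal GMP replicates 1 to 5 (blue), with a separate scale for each list. Stefin A sums of the leukaemias all lie above normal GMP, late granule and MHC class II sums overlap, and ribosomal protein sums lie below normal GMP with replicate 2 lowest.

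The change at the GMP origin was set against the mean change at the 3 other origins, in which leukaemias of short-term haematopoietic stem cells (STHSC:MA9, n = 3, against ST-HSC, n = 5), multipotent progenitors (MPP:MA9, n = 6, against MPP, n = 6) and common myeloid progenitors (CMP:MA9, n = 4, against CMP, n = 5) were each compared with their normal cell. No sample stood on both sides. Of 12600 genes 1188 (9.43%) had a higher and 630 (5.00%) a lower change at the GMP origin, 14.4% in all. With mitochondrial genes removed and samples rescaled the numbers were 1815 and 501; that scaling moved the median difference over all genes from 0.10 to 0.29. Levels are given beside the changes for some genes below, since the normal cells of the 4 origins differed among themselves. Where only changes are given, a difference may lie in the normal cells, in the leukaemias or in both.

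Hoxa9, Meis1 and Flt3 had a larger change at the GMP origin. Meis1 was at 112, 82.1 and 52.4 FPKM on average in ST-HSC, MPP and CMP, at 6.94 FPKM in GMP, and at 46.2 to 59.9 FPKM on average in the leukaemias of all 4 origins. Its log2 change was -0.94, -0.54 and -0.19 at the ST-HSC, MPP and CMP origins and 2.65 at the GMP origin (difference 3.20, limma adjusted p = 6.57e-10, SE 0.32). For Hoxa9 the changes were 0.80, 0.23 and 1.68 and 2.78 (difference 1.88, limma adjusted p = 4.12e-06, SE 0.29), and for Flt3 -1.35, -1.76 and 0.05 and 3.16 (difference 4.18, limma adjusted p = 3.92e-07, SE 0.57). Over the list of MLL fusion targets, 15 of 20 tested genes had a higher and 0 a lower change than at the other origins, against 9.43% and 5.00% of all genes.

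Granule genes and the calprotectin genes S100a8 and S100a9 had a smaller rise or a deeper fall. For Elane the log2 changes were 1.86, 0.65 and 0.82 at the ST-HSC, MPP and CMP origins and -4.15 at the GMP origin (difference -5.26, limma adjusted p = 8.42e-06, SE 0.86), with mean leukaemia levels of 1071, 602 and 373 FPKM in STHSC:MA9, MPP:MA9 and CMP:MA9 and of 394 FPKM in GMP:MA9. Mpo was lower in leukaemia at every origin, with log2 changes of -3.73, -5.71 and -5.78 and, at the GMP origin, -7.95 (difference -2.87, limma adjusted p = 0.000473, SE 0.63). S100a8, S100a9, Fcnb and Camp were the other genes of the largest lower differences, -5.27, -5.49, -5.44 and -5.13. For S100a8 the mean was 74.7 FPKM in MPP and 31.4 FPKM in CMP against 2082 FPKM in GMP, while ST-HSC ranged from 11.6 to 12626 FPKM. Of 19 late granule genes 14 had a lower change at the GMP origin and 0 a higher one, against 5.00% and 9.43% of all genes.

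**Figure D5:**
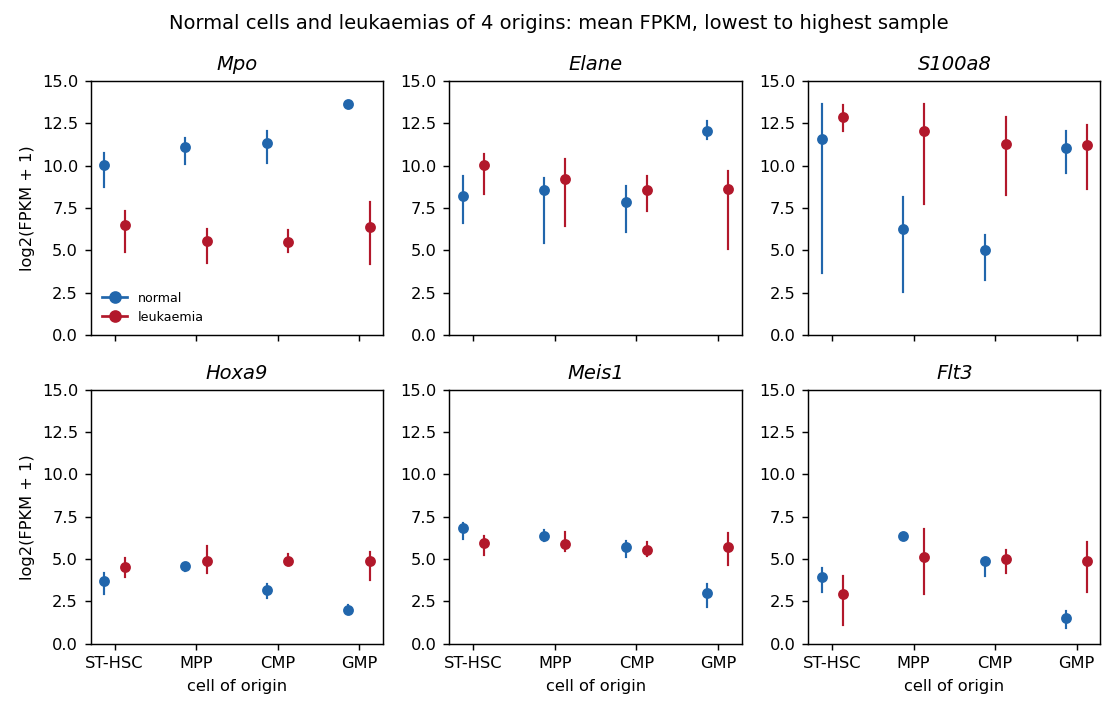
Mean FPKM on log2(FPKM + 1) of 6 genes in normal cells (blue) and leukaemias (red) of the ST-HSC, MPP, CMP and GMP origins, with lines from the lowest to the highest sample. Mean Meis1 of the leukaemias lies between 46.2 and 59.9 FPKM at all 4 origins, while normal GMP lie lowest for Meis1 and Hoxa9 and highest for Mpo and Elane.

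Large higher differences, for Dntt, Car2, Flt3 and Zfpm1, were 5.60, 5.00, 4.18 and 4.13. Apart from Flt3, these are genes of lymphoid, erythroid or megakaryocyte progenitors whose levels were lower in GMP than in the 3 other normal cells. Car2, a carbonic anhydrase, was at 349, 195 and 431 FPKM on average in ST-HSC, MPP and CMP, at 8.75 FPKM in GMP and at 2.59 FPKM in GMP:MA9. Zfpm1, a cofactor of GATA factors, was at 37.9, 15.1 and 39.1 FPKM in the same 3 cells and at 0.818 FPKM in GMP and 0.852 FPKM in GMP:MA9. Dntt, the terminal transferase of lymphoid progenitors, was at 34.2, 269 and 31.6 FPKM on average in ST-HSC, MPP and CMP, at 0.210 FPKM in GMP and listed at 0 in all 6 GMP:MA9 samples. Antigen presentation and interferon genes were also on the higher side: 6 of 9 tested genes of MHC class II and 12 of 19 of the interferon response had a higher and 0 a lower change at the GMP origin. The shares over all genes were 9.43% and 5.00%. The median log2 change of the interferon genes was -0.03 at the GMP origin and -1.11, -1.11 and -0.86 at the ST-HSC, MPP and CMP origins, so their higher change was not a rise. For Cd74 the log2 changes were -2.85, -0.35 and 0.07 at the ST-HSC, MPP and CMP origins and 3.02 at the GMP origin (difference 4.07, limma adjusted p = 0.00133, SE 0.98). The value of 3.02 rests on normal GMP replicates 1 and 2. Without them the log2 change of GMP:MA9 against GMP was 1.34 (limma adjusted p = 0.332). Of 19 tested genes of growth 2 had a higher change at the GMP origin and of 30 genes of replication and mitosis 0, with 0 lower in each list. These counts too are to be read against 9.43% and 5.00% of all genes. A call that was not made does not show equal changes.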

How the data were processed

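RNA of bulk sorted cells was amplified (NuGen Ovation V2), made into TruSeq libraries and sequenced on an Illumina HiSeq, and transcript abundance was estimated with RSEM; the submitters' processing notes also name mm9. The values deposited by the authors were FPKM per gene, to 2 decimals, in a table of 68 columns, of which 49 carried the name of a labelled sample; the 19 others were left aside. The authors' notes give no further normalization of the FPKM. Read counts were not used here, so the study's count test was not repeated and depth is known only as ratios.

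Groups were taken from the labels, 6 GMP:MA9 and 5 GMP samples, each from its own mouse. Genes averaging 1 FPKM or more were kept, log2(FPKM + 1) was fitted with limma 3.58.1 in R 4.3.3 (trended variance, 2 groups), and p-values were adjusted by Benjamini-Hochberg over all genes tested; a call needed an adjusted p below 0.05 and a fold above 2. The origin contrast was fitted over 8 groups. The mitochondrial share was tested by exact permutation over 462 splits. Scripts were tested on simulated data.

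Gene names, types and mm9 positions came from GENCODE M1 (33068 of 38253 IDs matched) and promoters from RefSeq on GRCm38.p6. Genes were named as members of 28 lists, as the 10 largest rises and falls without overlap, the 6 largest rises and falls in mean FPKM, the 5 largest origin differences in each direction and the 6 largest SD in leukaemia, all protein-coding with a symbol and, except for the SD, called; some genes that this rule names are not reported here. The members and lists were chosen with earlier results of these data known; the list of ribosomal proteins was added after values were seen. Alternatives covered pseudocount, filter, scaling, GC content and length, mitochondrial genes, replicate numbers, the fold threshold, the fit and each replicate; those leaving out several normal samples, shared sequence and, for the list counts, leukaemia replicate 2 were chosen after seeing the data.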

Additional observations from a re-analysis of the deposited data

Results flagged for a closer look

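The change at the GMP origin differed from the mean change at the 3 other origins for 1818 genes, by the limma contrast of the difference itself. The 5 largest lower differences were those of S100a9 (-5.49, limma adjusted p = 0.00354, SE 1.47), Fcnb (-5.44, limma adjusted p = 7.98e-06, SE 0.88), S100a8 (-5.27, limma adjusted p = 0.00362, SE 1.42), Elane (-5.26, limma adjusted p = 8.42e-06, SE 0.86) and Camp (-5.13, limma adjusted p = 0.00773, SE 1.52). Fcnb, Elane and Camp are genes of myeloid granules, and S100a8 and S100a9 form calprotectin. For S100a9 the changes at the ST-HSC, MPP and CMP origins were 4.59, 6.58 and 5.90, against 0.21 at the GMP origin, and for Camp they were 4.44, 6.11 and 6.14, against 0.43. Large higher differences were those of Dntt (5.60, limma adjusted p = 1.47e-15, SE 0.32), Car2 (5.00, limma adjusted p = 3.79e-08, SE 0.60), Flt3 (4.18, limma adjusted p = 3.92e-07, SE 0.57) and Zfpm1 (4.13, limma adjusted p = 2.16e-13, SE 0.29). For Car2 the changes at the 3 other origins were -7.04, -6.44 and -8.28 and for Zfpm1 -4.89, -2.83 and -4.43. Dntt was listed at 0 in all 6 GMP:MA9 samples, so its difference depends on the pseudocount.

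In 19 of 258 groups of values examined (7.36%), 1 sample stood apart from the others of its group by Dixon's test. Chance gives about 1 in 20 for normally distributed values that were not chosen for their spread. Some genes here were named by their SD in leukaemia, so the share cannot be held against that rate. GMP:MA9 replicate 2 held 8 of the 19. It was high for Mll1 (238 FPKM), Mllt3 (275 FPKM), Mecom (25.6 FPKM) and Ccnd3 (171 FPKM), and low for Cd34 (3.64 FPKM), Cebpa (7.33 FPKM), Rps4x (627 FPKM) and Rpl27-ps3 (0.0200 FPKM, against 251 to 357 FPKM in the 5 others). This is also the leukaemia with the lowest ribosomal protein share and the highest mitochondrial share, and the part of these in its values was not tested.

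GMP:MA9 replicate 5 was high for Prss34 (20.9 FPKM), Ccnd2 (8.38 FPKM) and Car1 (0.140 FPKM against 0 in the 5 others). GMP:MA9 replicate 3 was high for Il17ra (108 FPKM). Among the normal samples, replicate 1 was high for Nkg7 (773 FPKM) and Fcnb (191 FPKM), replicate 2 was low for Ppic (26.8 FPKM) and apart for Gm4631 (23.9 FPKM), replicate 4 was apart for Phgdh (49.3 FPKM) and Irf5 (2.82 FPKM), and replicate 5 was low for Tet2 (14 FPKM).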

How the results depend on the processing

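The number of called genes stayed within 1.5 times 2792 under every alternative run except the call without a fold threshold, which gave 6899 (3643 higher, 3256 lower). Without 1 replicate it ranged from 2508 to 2992, with 1621 to 1770 higher and 870 to 1253 lower, the fewest lower without GMP:MA9 replicate 2. The split moved from 1712 higher and 1080 lower to 1344 and 1194 after correction for GC content and length, which took the median log2 change from 0.03 to -0.08, and to 2094 and 996 with mitochondrial genes removed. For the difference between origins, no fold threshold gave 4588 genes (2791 higher, 1797 lower), and removal of mitochondrial genes gave 1815 higher genes, while 1 replicate less gave 1718 to 1926 (1104 to 1231 higher, 600 to 699 lower). The mitochondrial share differed by 3.05 to 6.56 percentage points without 1 replicate, and by 6.56 (exact permutation test, two-sided, p = 0.0381) without GMP replicate 4.

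With the replicate block 2816 genes were called, and 1834 for the difference between origins. Replicate number 6 occurs in GMP:MA9 and not in GMP. In the comparison of these groups the block therefore gave the same log2 changes as leaving that sample out, and is not a separate check of them. Deviations of same-numbered samples had correlations of -0.113 to 0.116 (over 0.1 in 1 of 5 pairs), and 1 leukaemia correlated best with its own number. Pairing by number was not seen in these values, and whether same-numbered samples share an experiment is not known.

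Of 3009 alternative values of 133 results on single genes, 2902 kept direction and call, 56 lost the call, 28 gained one and 23 changed sign, all 23 in genes that were not called; the cause was not tested. S100a9 (log2 change 0.21) was at -0.051 with the block, -0.12 with the block, GC content and length, and -0.18 to 0.63 without 1 replicate. S100a8 (-0.08) was at 0.015 without mitochondrial genes and -0.41 to 0.35 without 1 replicate. Cpa3 (-0.63) was at 0.14 without GMP replicates 3, 4 and 5 and -1.15 to 0.23 without 1 replicate. Gm10197 (-0.38) was at 0.35 with the block and -0.77 to 0.35 without 1 replicate. Mecom (0.23) was at -0.88 with a pseudocount of 0.1, -0.041 with GC content and length and -0.049 with these and the block. Fcgr3 (0.15) was at -0.040 without GMP replicates 3, 4 and 5. Mki67 (0.06) was at -0.21 with GC content and length, -0.19 with these and the block, -0.079 without GMP replicates 3, 4 and 5 and -0.014 to 0.14 without 1 replicate.

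Without read counts, counting error of low values could not be given. The alternative that merges repeated IDs was not run, since there were 0 such IDs. The sort differed between leukaemia and normal cells for every gene, most directly for Kit, Cd34 and Itgam. The sort and the leukaemia cannot be told apart.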
